A study of Homo sapiens with 6 samples.

Results

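The genes described here are 10 members of the insulin-like growth factor (IGF) axis: the binding proteins IGFBP2, IGFBP3, IGFBP4, IGFBP5, IGFBP6 and IGFBP7, the receptors IGF1R and IGF2R, and the receptor substrates IRS1 and IRS2. They were picked by name from a table of 24000 gene entries, and each of the 10 symbols had 1 entry. The table holds RNA-seq values from 6 PC-3 xenografts, 3 from vehicle-treated mice and 3 from mice treated with WCE, a standardized extract of the herb Wedelia chinensis. PC-3 is a human prostate cancer line that grows without androgen, so all 6 tumors descend from 1 cell line, and every host was a nude mouse, which lacks a thymus but keeps myeloid cells, fibroblasts and vessels. The labels give a treatment of 10 weeks for both groups and no dose, while the paper's text describes a shorter course for its PC-3 tumors. Its animal methods describe male mice, cells carrying firefly luciferase that were injected into the anterior prostate, and daily gavage. The comparison of the groups asks which transcripts of the tumor differed under WCE.

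Values are FPKM, fragments per kilobase of transcript relative to all mapped fragments of a library, a unit that corrects for transcript length and so allows levels of different genes to be compared. The epithelial markers KRT8 and KRT18 were between 192 and 322 FPKM in every tumor, and KLK3, a product of androgen-responsive prostate cells, was listed at 0 in each. The 4 markers that PC-3 cells express, KRT8, KRT18, EPCAM and VIM, summed to 1013 to 1236 FPKM under vehicle and 1075 to 1221 FPKM under WCE. Of these 4, 1 had an unadjusted p below 0.05 by limma, beside 7.10% of all entries tested. This was EPCAM, an epithelial adhesion protein, with 305, 250 and 185 FPKM under vehicle and 180, 138 and 123 FPKM under WCE (limma, difference of -0.73 on the log2(FPKM + 1) scale, unadjusted p of 0.00889). VIM, an intermediate filament of mesenchymal cells, had 275, 411 and 382 FPKM under vehicle and 378, 496 and 546 FPKM under WCE (difference of 0.41, limma unadjusted p of 0.0673). The depth of WCE replicate 1 was 25.0% of that of vehicle replicate 3, and the other tumors had from 64.8% to 85.2% of it. Vehicle replicate 3 and WCE replicate 1 were nearly the same library in their values, with a median absolute log2 difference of 0.0276 over 1915 well expressed entries, against 0.095 to 0.247 for the other 14 pairs, and all 15805 entries above 0 in WCE replicate 1 were also above 0 in vehicle replicate 3. Over the 10 IGF axis genes they differed by at most 0.13 on the log2(FPKM + 1) scale, in IGFBP5. The gap between the EPCAM groups, from 185 to 180 FPKM, also lay between these libraries. As these tumors carry different treatment labels, each result is given with all 6 tumors and, where it matters, with the 4 tumors that remain without them. Where vehicle replicate 3 lay above its group mean and WCE replicate 1 below its own, leaving both out could only raise a difference. This held for IGFBP2, IGFBP3 and IGFBP6.

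IGF1 and IGF2 are secreted peptides that activate IGF1R, a receptor tyrosine kinase. IRS1 and IRS2 dock on the active receptor and pass the signal to PI3K and AKT, which favor growth and survival. IGF2R has no kinase: it takes up IGF2 for degradation and also carries mannose 6-phosphate tagged enzymes to lysosomes. The binding proteins hold IGFs outside the cell and can either limit or prolong their access to the receptor, and IGFBP3, the main carrier in serum, also has actions that do not need IGF. In the prostate the axis is known as a growth pathway of epithelium and of carcinoma.

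IGFBP3 was the 1 gene of the 10 whose WCE-treated tumors all lay above its vehicle-treated tumors. The gap was only 0.010 on the log2(FPKM + 1) scale and lay between the nearly identical libraries. Groups that did not overlap, in either direction, were found in 12.8% of all entries tested. IGFBP3 stood at 26.9 ± 15.0 FPKM under vehicle and 64.5 ± 24.9 FPKM under WCE (SD, n = 3 each), a ratio of 2.40. IGFBP2 and IGFBP6 had higher means in WCE-treated tumors as well, IGFBP7 had a lower mean, and their groups overlapped. IGFBP4, IGFBP5, IGF1R, IGF2R, IRS1 and IRS2 had group means at most 0.17 apart on the log2(FPKM + 1) scale. None of the 10 genes passed the adjusted threshold over all entries.

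**Figure D1:**
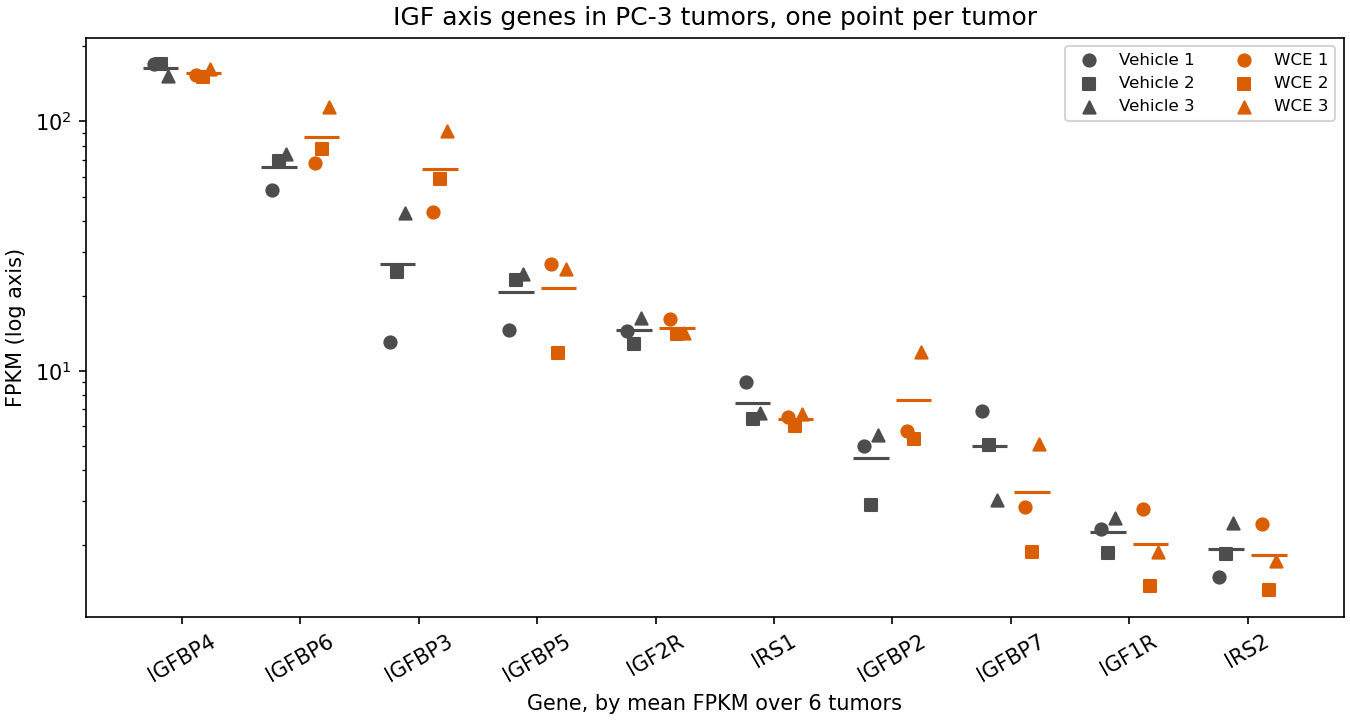
FPKM on a log axis for each of the 10 genes, ordered by the mean over 6 tumors, with vehicle-treated tumors in gray, WCE-treated tumors in orange, 1 point per tumor and a line at each group mean (n = 3). IGFBP4 lies near 160 FPKM in every tumor, IGFBP3 spans 13.1 to 91.8 FPKM with its groups apart, and IGF1R and IRS2 are the lowest.

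Per unit of length, every tumor held far more transcript of IGFBP4 and of IGFBP6 than of either receptor. IGFBP2 and IGFBP7 lay below IGF2R in every tumor. IGFBP4 was the highest of the 10 genes in 6 of 6 tumors, with 160 ± 8.50 FPKM (SD over 6 tumors), and its lowest tumor, at 151 FPKM, was above the highest value of IGFBP6, at 115 FPKM. IGFBP6 had 76.2 ± 20.6 FPKM and IGFBP3 had 45.7 ± 27.6 FPKM (SD over 6 tumors). IGFBP6 was above IGFBP3 within each of the 6 tumors although their ranges over tumors overlapped. IGFBP5 followed with 21.1 ± 6.32 FPKM and IGF2R with 14.7 ± 1.33 FPKM, and each was exceeded by the next gene of this order in 1 tumor or fewer. IRS1 at 6.91 ± 1.08 FPKM lay below IGF2R in every tumor without overlap. IRS1, IGFBP2 and IGFBP7 overlapped one after the other, and IGFBP2 was above IGFBP7 in 4 of 6 tumors. IGF1R at 2.13 ± 0.525 FPKM and IRS2 at 1.87 ± 0.472 FPKM held the 2 lowest places in every tumor, in that order, with overlapping ranges.

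The genes differed in how much they varied between tumors. The highest tumor exceeded the lowest 7.03 times for IGFBP3, 4.12 times for IGFBP2 and 3.68 times for IGFBP7, but only 1.12 times for IGFBP4 and 1.27 times for IGF2R. WCE replicate 3 had the highest value of 3 genes, IGFBP2, IGFBP3 and IGFBP6. WCE replicate 2 had the lowest value of 6 genes, which were IGFBP4, IGFBP5, IGFBP7, IGF1R, IRS1 and IRS2. Vehicle replicate 1 was the lowest tumor for IGFBP3 and IGFBP6 and the highest for IGFBP4, IGFBP7 and IRS1.

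IGFBP3, listed on chromosome 7 from 45951844 to 45960871 (human entries, for which the submitters' processing notes name the build hg19), had 13.1, 24.9 and 42.8 FPKM under vehicle and 43.1, 58.6 and 91.8 FPKM under WCE. The groups did not overlap, but the gap between the highest vehicle-treated and the lowest WCE-treated tumor was between the nearly identical libraries and was 0.010 on the log2(FPKM + 1) scale. By limma the difference was 1.31 on that scale (standard error 0.42, 95% confidence interval 0.33 to 2.29), with an unadjusted p of 0.0152 and an adjusted p of 0.623. The exact permutation test gave p = 0.1 (two-sided), the smallest that 3 tumors against 3 allow. With the 4 remaining tumors the difference was 1.96 (standard error 0.35, unadjusted p of 0.00187, adjusted p of 0.162 by limma). The tumors left out were the highest vehicle-treated and the lowest WCE-treated one, so the difference could only rise. Among all entries 18.6% had an unadjusted p under 0.05 in those 4 tumors. Leaving out WCE replicate 3 gave a difference of 1.03 (unadjusted p of 0.0536, adjusted p of 0.969 by limma). EPCAM was highest in vehicle replicate 1 and lowest in WCE replicate 3, the reverse of IGFBP3. VIM was lowest and highest in the same tumors as IGFBP3. KRT8 and KRT18 were lowest in vehicle replicate 1 but highest in vehicle replicate 2. Their differences between the groups were 0.05 and 0.10 on the log2(FPKM + 1) scale. The part of such differences between tumors in the IGFBP3 values was not tested. IGFBP3 had already been seen to differ in these tumors before it was listed here, so its separation is a description of the gene and not independent evidence.

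IGFBP3 and IGFBP1 are neighbors on chromosome 7, with 18576 bases between their listed loci. IGFBP1, a binding protein made mainly by liver and decidua, was between 0.0492 and 0.224 FPKM in the 6 tumors, too low to be tested. Of 9239 other entries with a mean of at least 5 FPKM, the 3 whose profile over the 6 tumors was closest to that of IGFBP3 were GJB6, TAGLN3 and MUC6. Closeness was the root mean square difference of log2(FPKM + 1) centered on each entry's mean, which was 0.223 for GJB6, 0.327 for TAGLN3 and 0.340 for MUC6. GJB6, which encodes a connexin, ran from 0.958 FPKM in vehicle replicate 1 to 18.3 FPKM in WCE replicate 3, the same lowest and highest tumors as IGFBP3.

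IGFBP2, a binding protein often raised in prostate cancer, is listed on chromosome 2 from 217498127 to 217529158. It had 5.01, 2.90 and 5.54 FPKM under vehicle and 5.72, 5.31 and 11.95 FPKM under WCE. WCE replicate 3 alone stood above 6 FPKM, and the other WCE-treated tumors lay close to vehicle replicates 1 and 3. The difference was 0.61 on the log2(FPKM + 1) scale (standard error 0.31, 95% confidence interval -0.10 to 1.33, unadjusted p of 0.0834, adjusted p of 0.623 by limma). In fits that left out 1 tumor it ranged from 0.28 without WCE replicate 3 to 0.80 without WCE replicate 2 (limma, unadjusted p of 0.0403, adjusted p of 0.957). In the 4 remaining tumors it was 0.90, with groups apart (limma, unadjusted p of 0.0638, adjusted p of 0.293). With limma array weights it was 1.12 (unadjusted p of 0.0106, adjusted p of 0.129). These weights gave WCE replicate 3, the highest tumor for IGFBP2, a weight of 4, against 0.408 to 1.44 for the other tumors. In that setting 24.1% of all entries had an unadjusted p under 0.05.

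IGFBP6, which prefers IGF2 to IGF1, is listed on chromosome 12 from 53491436 to 53496128. It had 53.3, 69.5 and 73.8 FPKM under vehicle and 68.1, 77.8 and 115 FPKM under WCE, so that the lowest WCE-treated tumor fell among the vehicle-treated ones. The difference was 0.38 on the log2(FPKM + 1) scale (95% confidence interval -0.11 to 0.87, unadjusted p of 0.109, adjusted p of 0.623 by limma). In the 4 remaining tumors it was 0.63, with an unadjusted p of 0.0371 and an adjusted p of 0.244 by limma, and it shrank to 0.16 in the fit that dropped WCE replicate 3.

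IGFBP4, which is known mostly for restraining IGF action and is cut by the protease PAPPA, is listed on chromosome 17 from 38599676 to 38613982. It had 170, 169 and 152 FPKM under vehicle and 154, 151 and 162 FPKM under WCE, and the groups overlapped. The difference of -0.07 on the log2(FPKM + 1) scale had a 95% confidence interval from -0.29 to 0.15, the narrowest of the 6 binding proteins. PAPPA itself was between 0.131 and 0.200 FPKM.

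IGFBP5, a binding protein that attaches to extracellular matrix, lies 7669 bases from IGFBP2 on chromosome 2, from 217536828 to 217560272. It had 14.5, 23.2 and 24.5 FPKM under vehicle and 26.9, 11.8 and 25.7 FPKM under WCE, so each group held 1 low tumor and 2 higher ones. The difference was -0.0018 on the log2(FPKM + 1) scale with a 95% confidence interval from -0.75 to 0.75, and its sign turned with the scaling. Although IGFBP5 and IGFBP2 are neighbors, WCE replicate 3 was the highest tumor for IGFBP2 and not for IGFBP5. For IGFBP5 only WCE replicate 1, the shallowest library, lay above it, at 26.9 against 25.7 FPKM. The order of those tumors is therefore uncertain.

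IGFBP7, which binds IGFs weakly and is abundant in blood vessel walls, had 6.89, 5.03 and 3.02 FPKM under vehicle and 2.85, 1.87 and 5.08 FPKM under WCE. The highest WCE-treated tumor was replicate 3, which was above vehicle replicates 2 and 3. The difference was -0.50 on the log2(FPKM + 1) scale (standard error 0.32, 95% confidence interval -1.25 to 0.25, unadjusted p of 0.160, adjusted p of 0.647 by limma), and leaving WCE replicate 3 out took it to -0.79, with an unadjusted p of 0.0332 and an adjusted p of 0.969 by limma. Its listed locus on chromosome 4, from 57845109 to 58071465, is shared with POLR2B and a further entry, so the span given is not that of IGFBP7 alone.

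**Figure D2:**
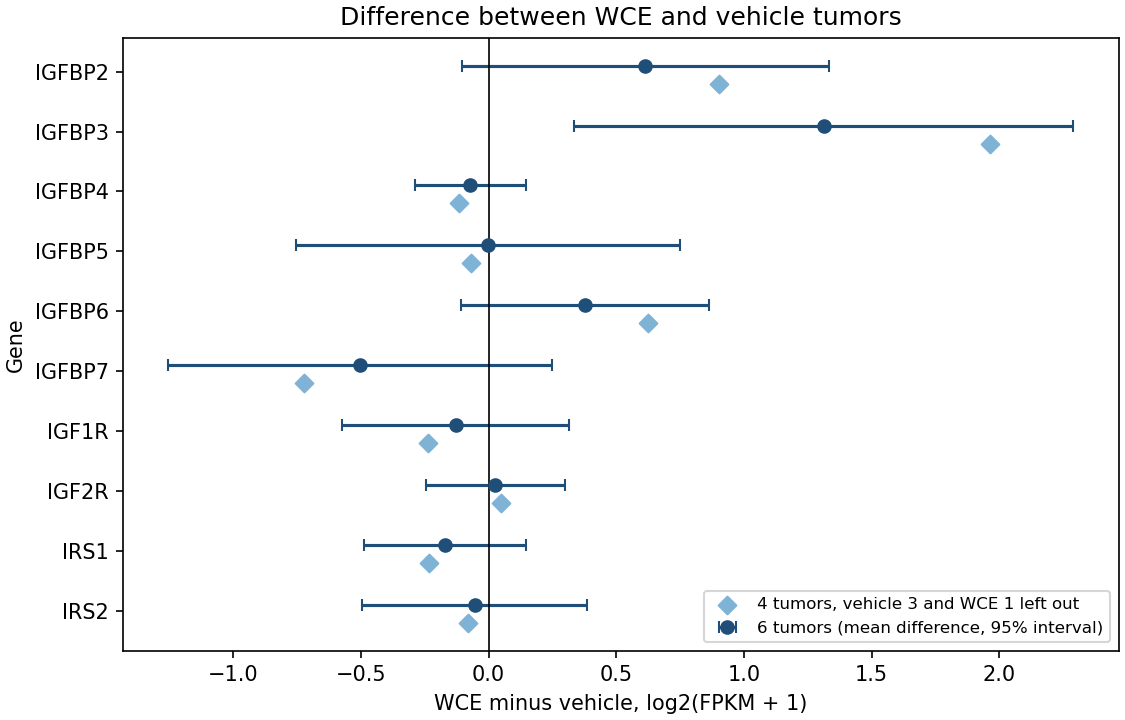
Difference between WCE-treated and vehicle-treated tumors in log2(FPKM + 1) for each of the 10 genes, with the 95% confidence interval by limma over 6 tumors (dark circles) and the value in the 4 tumors left without vehicle replicate 3 and WCE replicate 1 (light diamonds). The interval of IGFBP3 lies above 0, from 0.33 to 2.29, and those of the other 9 genes include 0.

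The binding proteins can also be read as one pool. Their summed level was 263, 295 and 302 FPKM under vehicle and 301, 307 and 411 FPKM under WCE, with WCE replicate 3 far above the rest. IGFBP4 and IGFBP6 together made up from 67.3% to 85.0% of the pool. The IGFBP3 share was 4.98%, 8.44% and 14.2% in vehicle-treated and 14.4%, 19.1% and 22.3% in WCE-treated tumors, a difference between group means of 9.40 percentage points. In the 4 remaining tumors that difference was 14.0 percentage points. It could only rise, as the tumors left out had the highest vehicle share and the lowest WCE share. The IGFBP4 share was 57.5 ± 7.12% and 46.6 ± 6.34% (SD, n = 3 each), while its own level differed little. No p is given for these shares, because the pool was put together with the IGFBP3 values known.

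**Figure D3:**
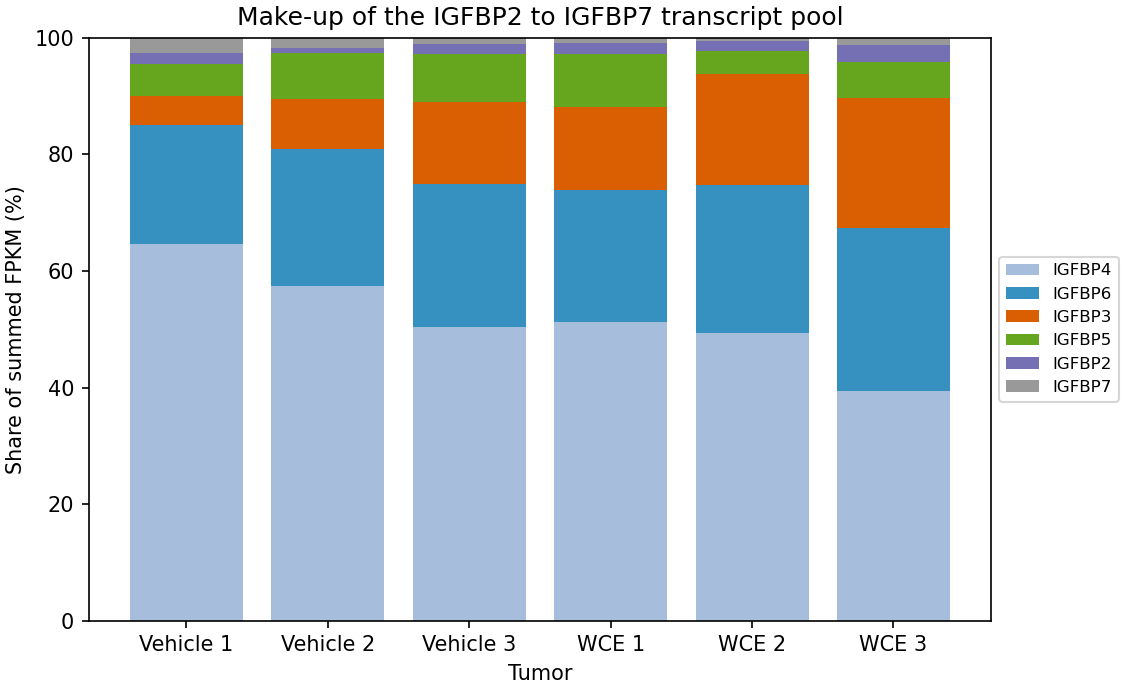
Share of the summed FPKM of IGFBP2 to IGFBP7 held by each gene, in percent, with 1 bar per tumor. IGFBP4 is the largest part in every tumor, and the IGFBP3 part (orange) ranges from 4.98% in vehicle replicate 1 to 22.3% in WCE replicate 3.

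IGF1R, the signaling receptor, is listed on chromosome 15 from 99192761 to 99507759, a locus shared with a microRNA entry at 0. It had 2.32, 1.86 and 2.56 FPKM under vehicle and 2.79, 1.37 and 1.88 FPKM under WCE, with the WCE-treated tumors on both sides of the vehicle-treated ones. The difference was -0.13 on the log2(FPKM + 1) scale, with a 95% confidence interval from -0.57 to 0.31. At this level the added 1 understates a change in FPKM.

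IGF2R, on chromosome 6 from 160390131 to 160527583 at a locus it shares with 1 more entry, had 14.5, 12.9 and 16.3 FPKM under vehicle and 16.1, 14.1 and 14.2 FPKM under WCE. All WCE-treated tumors fell inside the range of the vehicle-treated ones. The difference was 0.03 on the log2(FPKM + 1) scale (95% confidence interval -0.24 to 0.30). The ratio of IGF1R to IGF2R FPKM was 0.154 ± 0.00833 under vehicle and 0.134 ± 0.0378 under WCE (SD, n = 3 each). The difference of the log2 ratio was -0.24, and it was -0.026 without WCE replicate 2 and -0.44 without WCE replicate 1. It did not exceed the spread between tumors (exact permutation test, two-sided p = 0.5).

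IRS1, on chromosome 2 from 227596033 to 227663506, had 9.03, 6.43 and 6.77 FPKM under vehicle and 6.53, 5.98 and 6.71 FPKM under WCE. Vehicle replicate 1 was above the other 5 tumors, which lay within 1 FPKM of each other. The difference was -0.17 on the log2(FPKM + 1) scale (95% confidence interval -0.49 to 0.15), and the exact permutation test gave p = 0.4 (two-sided). Without vehicle replicate 1 the difference was -0.038.

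IRS2, on chromosome 13 from 110406184 to 110438914, had 1.49, 1.84 and 2.44 FPKM under vehicle and 2.43, 1.32 and 1.73 FPKM under WCE. The groups overlapped, and the difference was -0.05 on the log2(FPKM + 1) scale (95% confidence interval -0.50 to 0.39). The ratio of IRS2 to IRS1 FPKM was 0.271 ± 0.0991 under vehicle and 0.283 ± 0.0793 under WCE (SD, n = 3 each), and the exact permutation test gave a two-sided p of 0.9.

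All 10 genes passed the filter on low values, a mean of at least 0.5 FPKM over the 6 tumors, as did 13287 entries in all. Of the 10 genes, 4 had a higher and 6 a lower mean of log2(FPKM + 1) under WCE, with a median difference of -0.03, against -0.01 over all entries tested. By limma 0 of the 10 passed the adjusted threshold of 0.05, where 0.00753% of all entries did, and their adjusted p ranged from 0.623 to 0.999. At an unadjusted p under 0.05 there was 1 of 10, IGFBP3, beside 7.10% of all entries. Groups that did not overlap were found in 1 of 10 genes, again IGFBP3, beside 12.8% of all entries. Both shares lie close to those of the whole table.

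With the 4 remaining tumors 0 of the 10 genes passed the adjusted threshold by limma, beside 0.0377% of all entries. IGFBP3 and IGFBP6 had an unadjusted p under 0.05, or 2 of 10, beside 18.6% of all entries. IGFBP2, IGFBP3, IGFBP4 and IGFBP6 had groups that did not overlap, or 4 of 10, beside 53.6% of all entries. With 2 tumors against 2, such separation is frequent, and neither count stood out from the table.

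Several binding proteins are also made by stroma, and in whole tumors fewer cells of a type and less RNA per cell cannot be told apart. The markers below were read from human entries, while the stroma of these tumors comes from the mouse host. How mouse fragments were handled is not given, so the sums cannot be taken as levels of host fibroblasts, vessels or myeloid cells. The summed level of 7 fibroblast and matrix markers was 44.1 to 58.8 FPKM under vehicle and 14.0 to 58.4 FPKM under WCE, where the low value was WCE replicate 2. COL1A1 made up most of that sum, and COL1A2 and DCN were under 0.7 FPKM in every tumor. LUM, lower under WCE, was the 1 of its 4 tested markers under an unadjusted 0.05 by limma, beside 7.10% of all entries. COL1A1, COL1A2, COL3A1, LUM and PDGFRB were lowest in WCE replicate 2, and ACTA2 and DCN were not. WCE replicate 2 was also the lowest tumor for 6 of the 10 genes, for IGFBP4 by little (151 FPKM, against 152 FPKM in vehicle replicate 3). How many of all entries were lowest in it was not counted. Without WCE replicate 2 the difference on the log2(FPKM + 1) scale was -0.051 for IGFBP4, 0.36 for IGFBP5, -0.25 for IGFBP7, 0.03 for IGF1R, -0.13 for IRS1 and 0.078 for IRS2. The part of matrix cells in this was not tested. The 6 endothelial markers summed to 1.03 to 3.18 FPKM under vehicle and 2.20 to 2.65 FPKM under WCE, with PECAM1 making up most of it, CDH5 and VWF under 0.1 FPKM in every tumor and EMCN listed at 0 in every tumor. The 6 myeloid markers summed to 25.8 to 41.4 FPKM under vehicle and 40.4 to 44.7 FPKM under WCE, almost wholly from CD68, with PTPRC at most 0.666 FPKM. By flow cytometry the paper reported fewer myeloid-derived suppressor cells and tumor-associated macrophages in PC-3 tumors under WCE. The part of myeloid cells in the higher IGFBP3 was not tested.

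Around the 10 genes, a list of 43 further IGF pathway genes was read from the same fit. They fell on 42 entries, of which 34 were tested. By limma 0 had an adjusted p under 0.05, and 4 had an unadjusted p under 0.05, all higher in WCE-treated tumors (11.8% of those tested, beside 7.10% of all entries in either direction). Groups that did not overlap were found in 5 entries, INSR, M6PR, GRB2, TSC2 and RPTOR (14.7%, beside 12.8% of all entries). The median difference over the 34 was 0.07 on the log2(FPKM + 1) scale, with 22 above and 12 below 0.

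Among the ligands, IGF2 could not be told apart from INS, since both share 1 entry with their readthrough transcript. That entry had 128, 29.2 and 75.8 FPKM under vehicle and 76.3, 103 and 67.0 FPKM under WCE. The spread within the vehicle group was wider than the whole WCE group. IGF1 was between 0.249 and 0.706 FPKM, and IGFALS, the subunit that completes the serum complex with IGFBP3, was at most 0.216 FPKM. Both were too low to be tested.

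Among receptors and other binders of the family, INSR, the insulin receptor, had 3.59, 3.25 and 4.03 FPKM under vehicle and 4.11, 4.26 and 4.57 FPKM under WCE. Its groups were apart, by 0.02 on the log2(FPKM + 1) scale between the nearly identical libraries, and the difference was only 0.20 on the log2(FPKM + 1) scale (95% confidence interval -0.06 to 0.46, unadjusted p of 0.111, adjusted p of 0.623 by limma). LRP1, a large endocytic receptor of the cell surface, had 7.46, 8.67 and 13.2 FPKM under vehicle and 13.1, 17.6 and 19.5 FPKM under WCE. As with IGFBP3, vehicle replicate 1 was the lowest tumor and WCE replicate 3 the highest, but here vehicle replicate 3 lay just above WCE replicate 1. The difference was 0.74 on the log2(FPKM + 1) scale (standard error 0.22, unadjusted p of 0.0107, adjusted p of 0.623 by limma). It was 1.11 in the 4 remaining tumors (limma, unadjusted p of 0.000239, adjusted p of 0.152). Here too the highest vehicle-treated and the lowest WCE-treated tumor were left out, so the difference could only rise. In that setting 18.6% of all entries had an unadjusted p under 0.05.

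STC1, a stanniocalcin that inhibits the PAPPA proteases, had 6.62, 13.4 and 12.7 FPKM under vehicle and 12.2, 39.1 and 41.1 FPKM under WCE. WCE replicates 2 and 3 stood well above all other tumors, and WCE replicate 1 lay among the vehicle-treated ones. The difference was 1.30 on the log2(FPKM + 1) scale (standard error 0.46, unadjusted p of 0.0233, adjusted p of 0.623 by limma). It was 1.97 in the 4 remaining tumors (limma, unadjusted p of 0.000893, adjusted p of 0.162), where 18.6% of all entries had an unadjusted p under 0.05. Vehicle replicate 3 lay above its group mean and WCE replicate 1 below its own, so the difference could only rise. Its relative STC2 had 35.0 ± 7.45 and 32.2 ± 5.68 FPKM (SD, n = 3 each), a smaller difference than the spread between tumors.

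TSC2, which restrains the TOR kinase, had 8.44, 8.74 and 11.3 FPKM under vehicle and 11.4, 12.7 and 12.3 FPKM under WCE, a difference of 0.34 on the log2(FPKM + 1) scale (unadjusted p of 0.0295, adjusted p of 0.623 by limma). RPTOR, the scaffold of TOR complex 1, had 7.14, 6.07 and 7.38 FPKM under vehicle and 8.11, 8.93 and 9.54 FPKM under WCE, a difference of 0.33 (unadjusted p of 0.0214, adjusted p of 0.623 by limma). Both genes had their groups apart, by 0.02 and 0.12 on the log2(FPKM + 1) scale, and in both the gap lay between the nearly identical libraries. The 3 AKT genes, the catalytic PI3K genes PIK3CA and PIK3CB and the FOXO genes all had 95% confidence intervals that include 0.

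**Figure D4:**
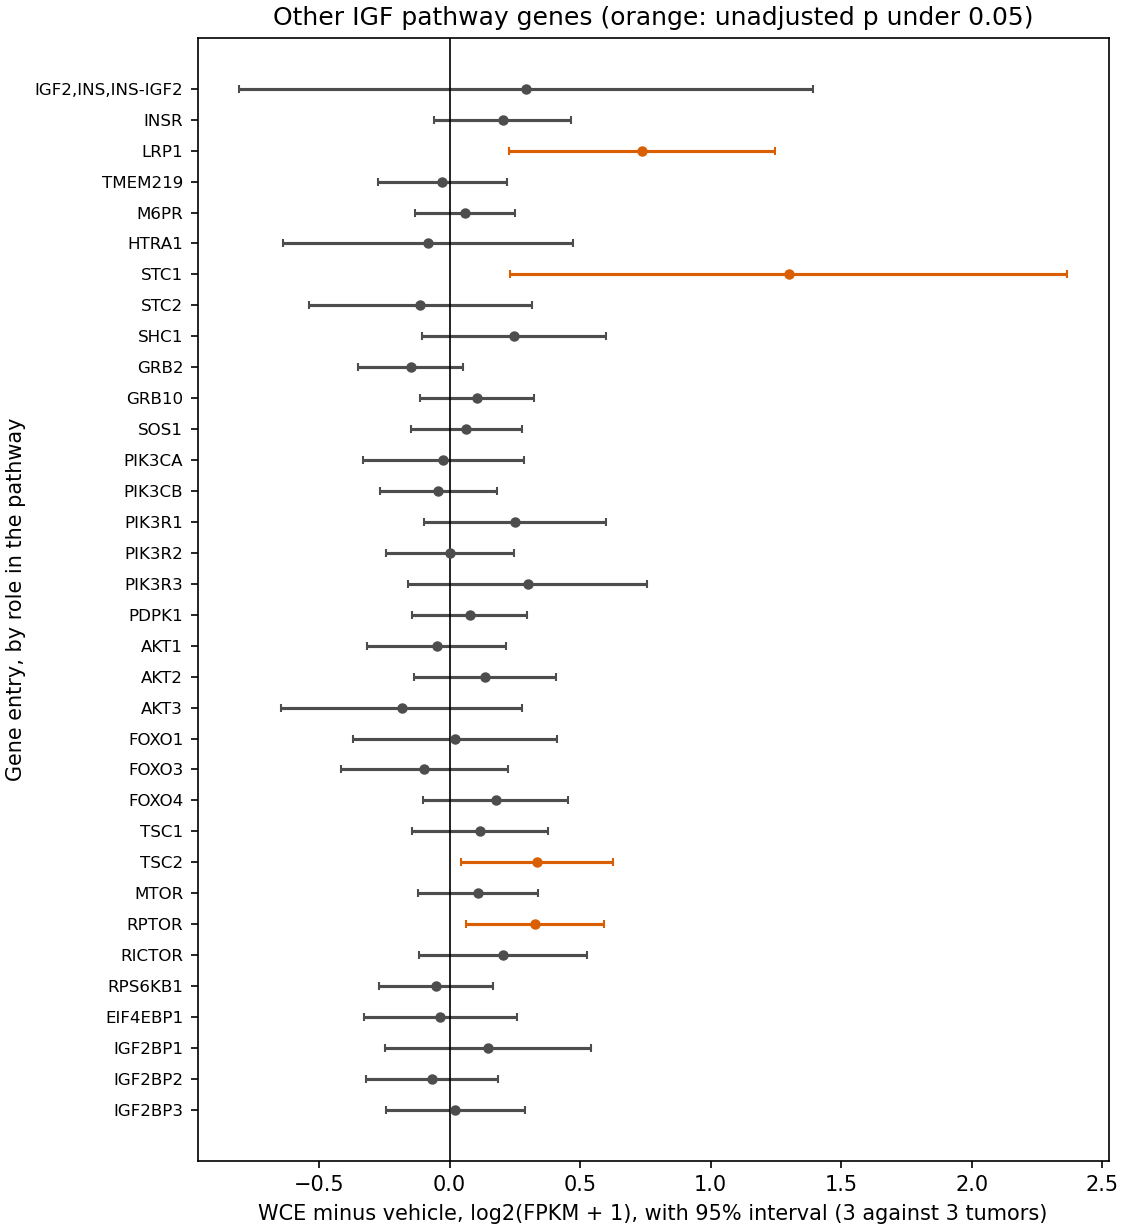
Difference between WCE-treated and vehicle-treated tumors in log2(FPKM + 1), with the 95% confidence interval by limma (3 against 3 tumors), for the 34 further IGF pathway entries tested, grouped by role. STC1, LRP1, TSC2 and RPTOR (orange) have an unadjusted p under 0.05, and none of the 34 entries has an adjusted one.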

How the data were processed

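The authors deposited 1 table of FPKM values with a column for each of 6 PC-3 tumors (3 vehicle, 3 WCE) and 24000 gene entries. The submitters' processing notes name TopHat2 2.0.13, Cufflinks and the builds hg19 and mm10, with no role for either build; scaling between tumors is not given in the sources used here. Libraries were stranded and made from mRNA. Listed loci start from 0 and were counted from 1. Symbols were matched after splitting joined names. No column was left out.

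Values were analyzed as log2(FPKM + 1). The fit by limma 3.58.1 (R 4.3.3) took the 13287 entries whose mean reached 0.5 FPKM (mean-variance trend, two-sided, Benjamini-Hochberg adjustment over all entries, threshold 0.05). Single ratios were compared by an exact permutation test over 20 regroupings. The absolute depth is unknown. Relative depth came from the commonest ratio of low values between tumors. Tumors are separate by their labels, and p-values measure the spread between the tumors as labeled. Vehicle replicate 3 and WCE replicate 1 were nearly the same library in their values. P-values that include both cannot be taken to rest on independent tumors.

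The 10 genes, the pathway and marker lists and the alternatives were chosen with earlier results of these data known. The text names the 10 genes, 6 fixed pathway genes, pathway genes with an unadjusted p under 0.05, the 4 with the largest difference and the 3 entries most like IGFBP3. PAPPA, STC2, M6PR, GRB2 and the genes named only by role were added after their values were seen. A further 2 listed genes are not reported here. The fit was also run on simulated data with 200 changed entries, and no p-value given here draws on that run. Figures were drawn with matplotlib 3.10.9.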

Additional observations from a re-analysis of the deposited data

How the results depend on the processing

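Of 190 values of the 10 genes under alternatives, 180 kept their direction and their side of the adjusted threshold, and 10 changed direction. IGFBP2, IGFBP3, IGFBP4, IGFBP6, IGFBP7 and IRS1 kept their direction in the 19 settings run, and none of the 10 genes passed the adjusted threshold by limma in any of them. IGFBP3 ranged from 0.89 to 1.96 on the log2 scale, with an unadjusted p under 0.05 in 16 of 19 settings and an adjusted p from 0.126 to 0.969. By limma its unadjusted p was 0.0536 without WCE replicate 3 and 0.0575 with low entries kept, and it was 0.0817 in the unmoderated test. LRP1 kept an unadjusted p under 0.05 in 18 of 19 settings, RPTOR in 16, STC1 and TSC2 in 14. Leaving out WCE replicate 2 or 3 gave RPTOR, STC1 and TSC2 an unadjusted p above 0.05, as did leaving out vehicle replicate 1 for STC1 and TSC2 and vehicle replicate 2 for TSC2 and RPTOR. IGFBP5 became 0.0077 with upper-quartile scaling and 0.0017 with quantile normalization. In fits that left out 1 tumor, the difference ranged from -0.23 to 0.36 for IGFBP5, from -0.054 to 0.11 for IGF2R, from -0.31 to 0.030 for IGF1R and from -0.20 to 0.078 for IRS2, and the log2 ratio of IRS2 to IRS1 from -0.22 to 0.35. The cause was not tested.

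Genes of the 10 with an unadjusted p under 0.05 by limma numbered 1 with all 6 tumors. There were 0 in the unmoderated test and when low entries were kept, 3 with limma array weights, 2 in the 4 tumors left without vehicle replicate 3 and WCE replicate 1, and 1 to 2 in fits that left out 1 tumor. Over all entries the shares were 4.46%, 4.38%, 24.1%, 18.6% and 1.72% to 15.3% in that order. Genes with groups apart numbered 1, then 4 in those 4 tumors and 1 to 3 with 1 tumor left out, beside 53.6% and 17.3% to 37.8% of all entries. The count of 3 came without vehicle replicate 3 and without WCE replicate 2. The IGFBP3 share differed by 14.0 points in the 4 tumors. Of the further pathway genes, 4 had an unadjusted p under 0.05, against 2 with the unmoderated test, 8 with array weights, 6 in the 4 tumors and 1 to 5 with 1 tumor left out. Over all entries 944 had an unadjusted p under 0.05 and 1 an adjusted one by limma. The unadjusted count was 593 with the unmoderated test, 3201 with array weights and 2459 in the 4 tumors. It ranged from 228 to 2035 with 1 tumor left out: 1769 without vehicle replicate 3, 2035 without WCE replicate 1 and at most 438 without any other tumor. The adjusted count was 0 with no filter, with the unmoderated test and after rescaling without small RNA entries (1051, 593 and 987 unadjusted), 5 in the 4 tumors and 1 to 7 with 1 tumor left out.

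With a replicate block 3 of the 10 genes (IGFBP2, IGFBP3 and IGFBP6) had an unadjusted p under 0.05, beside 1049 of all entries (7.89%). The labels give no shared source for tumors of the same number. Their deviations from the group means correlated at -0.241, 0.160 and -0.0931, and 2 of 6 tumors correlated best with their own number. Low genes such as IRS2 are least precise in WCE replicate 1, the shallowest library.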
